A study of Mus musculus with 6 samples.

Results

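The 10 genes described here are markers of white and brown fat cells, measured in whole mouse kidney, and they were 10 of the 13026 genes in the deposited table of all libraries. They were picked by symbol (Cfd, Adipoq, Cidea, Cidec, Retn, Plin1, Ucp1, Fabp4, Lipe and Car3), because most of them appear in 1 knockout library only. Their levels across the 6 libraries therefore chose them, and those levels are given as a description with no test. The study compared 3 kidney libraries of LIGHT+/+ mice, called wild type, with 3 of LIGHT-/- mice, called knockout, which lack the cytokine LIGHT (TNFSF14). All were adult males on a C57BL/6 J background, and all 6 had bilateral renal ischemia for 32 min followed by reperfusion for 24 h, so no unoperated kidney stands beside them. The labels do not say for each library that it came from a different mouse, and the level of the targeted gene was not analysed here. Values are FPKM, a level per transcript length and library size that can be compared between genes, and the read depth of each library is unknown because FPKM does not hold it.

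Fat cells store triglyceride in a lipid droplet coated by perilipins and enlarged by CIDE proteins, and release it through lipases when hormones call for fuel. White fat also secretes hormones such as adiponectin, while brown fat burns lipid for heat through the uncoupling protein UCP1. Kidneys lie in a pad of perirenal fat, which in mice can hold both kinds of fat cell, and fat also fills the renal sinus around the pelvis. Some of the genes are not restricted to fat: Fabp4 is also made by capillary endothelium and some macrophages, and Car3 by slow muscle. Defining markers of the labelled tissue were present: Kap, an androgen-regulated proximal tubule gene, stood between 3717 and 4207 FPKM in the 6 libraries.

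Promoters of 4 members are shown, all of them near 0 or low in 5 libraries and high in the same sixth library. Retn and Ucp1 had the same split and a window, and are not shown. The 4 shown include the only 2 members with a match to the letters marked below. Each is a RefSeq window of build GRCm38.p6, from 250 bases before to 50 bases after the annotated start, written in the direction of transcription, with capitals marking the letters TTGCNNAA on either strand, a form bound by C/EBP factors of fat cell differentiation. The windows are chr16:23146286-23146585 on the plus strand for Adipoq, chr10:79890603-79890902 on the plus strand for Cfd, chr7:79732727-79733026 on the minus strand for Plin1 and chr6:113434715-113435014 on the minus strand for Cidec.
Adipoq: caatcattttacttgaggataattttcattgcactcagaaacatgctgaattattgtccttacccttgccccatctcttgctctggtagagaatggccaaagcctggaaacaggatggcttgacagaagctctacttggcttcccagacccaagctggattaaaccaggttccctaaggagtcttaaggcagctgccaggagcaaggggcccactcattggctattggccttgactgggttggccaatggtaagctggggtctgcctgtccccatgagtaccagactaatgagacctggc
Cfd: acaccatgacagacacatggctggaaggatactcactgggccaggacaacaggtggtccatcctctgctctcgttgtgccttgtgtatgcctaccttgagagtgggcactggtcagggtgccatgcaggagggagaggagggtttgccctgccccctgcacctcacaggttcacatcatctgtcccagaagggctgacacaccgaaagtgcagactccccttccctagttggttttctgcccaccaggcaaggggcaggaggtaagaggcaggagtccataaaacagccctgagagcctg
Plin1: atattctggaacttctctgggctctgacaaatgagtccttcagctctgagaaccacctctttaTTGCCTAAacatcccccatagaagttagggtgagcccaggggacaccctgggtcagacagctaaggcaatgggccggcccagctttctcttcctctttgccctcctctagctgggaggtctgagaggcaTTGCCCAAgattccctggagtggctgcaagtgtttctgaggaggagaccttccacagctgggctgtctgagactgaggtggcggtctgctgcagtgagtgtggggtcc
Cidec: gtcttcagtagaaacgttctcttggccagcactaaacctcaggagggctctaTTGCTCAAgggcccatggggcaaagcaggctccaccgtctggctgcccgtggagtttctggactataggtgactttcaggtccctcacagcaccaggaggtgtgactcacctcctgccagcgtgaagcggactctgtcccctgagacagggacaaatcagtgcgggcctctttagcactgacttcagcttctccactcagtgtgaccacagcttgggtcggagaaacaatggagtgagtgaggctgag
The Plin1 window held 2 such matches, beginning at -187 and -58 bases from the start. The Cidec window shown, with its start at 113434764, held 1, beginning at -198. Another Cidec window, not shown, with its start at 113435760, the upstream end of the gene position given below, held none. Adipoq and Cfd held none.

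RefSeq windows were matched for 7 of the 10 members, 9 windows in all, since Cidec and Lipe have 2 each, and Cidea, Fabp4 and Car3 were not matched. TTGCNNAA was in 2 of the 9 windows and in 10.8% of all 32851 windows of the same length. The direct repeat AGGTCANAGGTCA, read by PPAR-gamma with its partner RXR, was in 0 of the 9 and in 0.0396% of all windows. The single hexamer AGGTCA, which lies inside that repeat, was in 1 of the 9, that of Ucp1, and in 16.3% of all. The letters TATAAA were in 0 of the 9 and in 13.6% of all. Both strands were searched for each, and a match is a string of letters and not a binding site.

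The secreted products of fat cells were close to absent in 5 libraries and clear in knockout library 3. Cfd, which encodes adipsin, the protease complement factor D (ENSMUSG00000061780.5, chromosome 10, 79890853 to 79892655), stood at 0, 0 and 0 FPKM in the 3 wild types and at 0, 0.147 and 63.6 FPKM in the knockout libraries. Adipoq, which encodes the hormone adiponectin (ENSMUSG00000022878.5, chromosome 16, 23146536 to 23158028), stood at 0, 0 and 0 FPKM in wild type and at 0.0659, 0 and 13.1 FPKM in knockout. Retn, which encodes resistin (ENSMUSG00000012705.16, chromosome 8, 3655770 to 3660110), stood at 0, 0.0571 and 0 FPKM in wild type and at 0, 0 and 4.60 FPKM in knockout. For all 3 genes knockout library 3 was the high one, and the other knockout libraries lay within or next to the wild type range. As the groups overlap, the knockout means and SD (n = 3) describe 1 library more than a group: 21.2 ± 36.7 FPKM for Cfd, 4.40 ± 7.57 for Adipoq and 1.53 ± 2.66 for Retn.

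**Figure D1:**
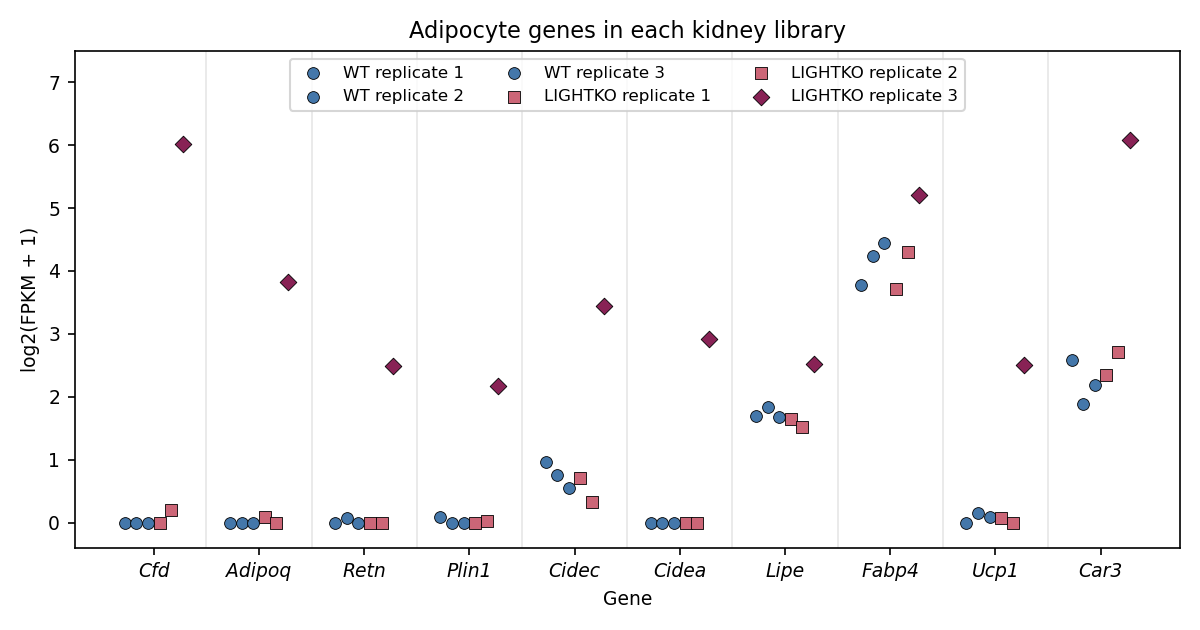
Each point is the level of 1 gene in 1 library, as log2(FPKM + 1), for the 10 adipocyte genes on the x axis. Knockout library 3 (diamonds) was the highest of the 6 for all 10 genes, while Fabp4, Lipe, Car3 and Cidec were also present in the other 5.

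Genes of the lipid droplet coat had the same high library but differed in how much the other kidneys held. Plin1, which encodes perilipin 1, the droplet coat protein that gates lipase access (ENSMUSG00000030546.14, chromosome 7, 79720218 to 79732903), stood at 0.0659, 0 and 0 FPKM in wild type and at 0, 0.0147 and 3.51 FPKM in knockout. Cidea, a droplet-fusing protein abundant in brown fat (ENSMUSG00000024526.8, chromosome 18, 67343604 to 67367785), stood at 0 FPKM in all 5 other libraries and at 6.54 FPKM in knockout library 3. Cidec, its relative that builds the single large droplet of white fat (ENSMUSG00000030278.11, chromosome 6, 113424634 to 113435760), stood at 0.944, 0.685 and 0.465 FPKM in wild type and at 0.636, 0.255 and 9.91 FPKM in knockout. Cidec was thus low but above 0 in every library, and its level in knockout library 3 was 10.5 times that of the highest other library. Cidea overlaps the transcript B430212C06Rik on the opposite strand, and no source used here says whether reads were counted by strand.

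The genes of lipolysis and fatty acid transport were present in every kidney and stood out less. Lipe, which encodes hormone-sensitive lipase (ENSMUSG00000003123.15, chromosome 7, 25379527 to 25398710), stood at 2.24, 2.59 and 2.20 FPKM in wild type and at 2.12, 1.87 and 4.77 FPKM in knockout. Without knockout library 3, both knockout values lay below all 3 wild type values. Lipe overlaps 4732471J01Rik on the opposite strand. Fabp4, a fatty acid carrier (ENSMUSG00000062515.3, chromosome 3, 10204088 to 10208576), stood at 12.8, 17.9 and 20.8 FPKM in wild type and at 12.1, 18.6 and 35.8 FPKM in knockout. The excess of knockout library 3 over the highest other library was 1.84-fold for Lipe and 1.72-fold for Fabp4, the smallest of the members above 0 in every library.

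Ucp1, which encodes the proton leak channel of brown fat (ENSMUSG00000031710.4, chromosome 8, 83290352 to 83298452), stood at 0, 0.110 and 0.0597 FPKM in wild type and at 0.0560, 0 and 4.65 FPKM in knockout. Car3, which encodes a carbonic anhydrase abundant in fat and slow muscle (ENSMUSG00000027559.5, chromosome 3, 14863512 to 14872523), stood at 5.01, 2.71 and 3.55 FPKM in wild type and at 4.07, 5.59 and 66.8 FPKM in knockout. Ucp1 was near 0 outside knockout library 3, whereas Car3 had a level in every kidney and was 11.95 times higher there than in the highest other library. White and brown markers among the members were high in the same library, which the choice of members fixed for most of them.

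Across the 10 genes, 6 (Cfd, Adipoq, Cidea, Retn, Plin1 and Ucp1) were below 0.2 FPKM in all 5 other libraries and between 3.51 and 63.6 FPKM in knockout library 3. The 10 genes summed to 21.0, 24.1 and 27.1 FPKM in the 3 wild types and to 19.0, 26.5 and 213 FPKM in the knockout libraries. As a share of all FPKM this was 0.0712% in knockout library 3 and 0.00605 to 0.00883% in the others. The makeup of the sum also differed: Car3 and Fabp4 held 87.6% of the mean sum of the other 5 libraries, while Car3 and Cfd held 61.1% in knockout library 3. Of the summed excess of knockout library 3 over the mean of the others, 190 FPKM, Cfd accounted for 33.5%, Car3 for 32.99%, Fabp4 for 10.2% and Adipoq for 6.92%, and Plin1 and Lipe for the least, 1.84 and 1.35%. In whole tissue, a different number of cells of a type and a different amount of RNA per cell cannot be told apart.

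**Figure D2:**
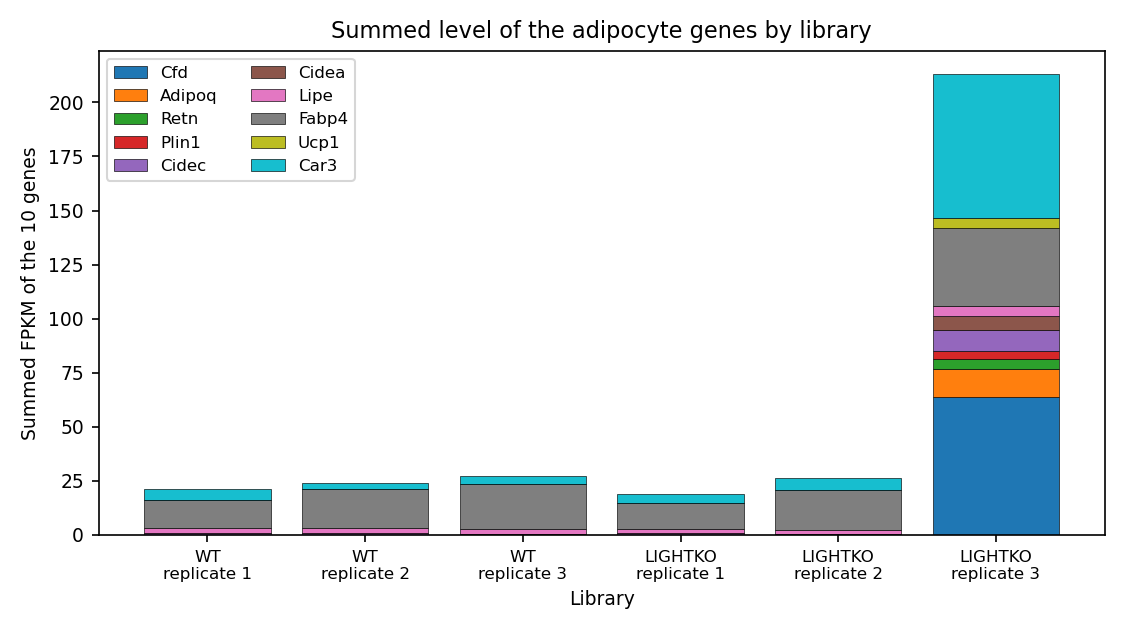
Stacked bars give the summed FPKM of the 10 adipocyte genes in each library, 1 colour per gene. Knockout library 3 reaches 213 FPKM, mostly from Car3, Cfd and Fabp4, and the other 5 libraries lie between 19.0 and 27.1 FPKM, mostly from Fabp4.

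The difference between genotypes in these genes rested on that library. The median difference, knockout minus wild type on the log2(FPKM + 1) scale, was 0.79 over the 10 genes, against -0.01 over the 12836 genes kept with a mean of at least 0.5 FPKM. Without knockout library 3 the median over the 10 genes was -0.02. In none of the 10 did the groups separate without overlap (0 of 10), as they did in 16.6% of all genes kept. Without knockout library 3 the groups separated in 1, Lipe, which was lower in knockout, beside 23.9% of all genes kept. The members were picked largely for their level in 1 knockout library, so these medians and counts describe the choice and are not a test. By gene, the log2 difference ranged from 0.16 for Lipe and 0.25 for Fabp4 to 1.49 for Car3 and 2.07 for Cfd, and without that library from -0.24 for Cidec to 0.31 for Car3. All 10 genes passed the filter on low values, but only 4 (Cidec, Fabp4, Lipe and Car3) would have passed on the other 5 libraries. The deposited table itself holds no gene whose higher group mean is under 0.50043 FPKM, so a gene at 0 in 2 knockout libraries had to reach 1.501 FPKM in the remaining one to be listed through that group.

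Knockout library 3 stood apart in general, not in fat genes alone. Its correlation with the other libraries over log2(FPKM + 1) of all genes kept was 0.934 to 0.956, against 0.976 to 0.989 among the other 5. It was the highest library for 29.8% of genes kept and the lowest for 30.3%. It was at least 2-fold above every other library for 319 genes, or 2.49%, where each of the other libraries was so for 6 to 30 genes.

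Other genes of fat cells, from a list of 42 chosen with earlier results of these data known, had values for 32 and were kept for 31. The limma test over all genes called 0.117% of genes kept at an adjusted p under 0.05. In that test 0 of the 31 passed in either direction and 3 had an unadjusted p under 0.05 (Cebpa, Pck1 and Mgll). Over all genes kept, 1037 of 12836 had an unadjusted p under 0.05. Of the 31, 26 were higher and 5 lower in knockout, where 47.9% of all genes kept were higher. Their median log2 difference was 0.26, and 0.14 over the same genes without knockout library 3. Of the 31, 28 would have passed the filter on the other 5 libraries. Knockout library 3 was the highest library for 20 of the 31, at least 2-fold above every other library for 7, and the lowest for 3.

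Those 7 were Plin4, Pparg, Slc2a4, Thrsp, Fasn, Scd1 and Nnat, named after their values were seen. Of these, Plin4 and Nnat passed the filter only through knockout library 3. Plin4, another perilipin of fat cells, stood at 0.379, 0.447 and 0.297 FPKM in wild type and at 0.387, 0.576 and 3.87 FPKM in knockout. Pparg, the master regulator of fat cell differentiation, stood at 0.580, 0.535 and 0.544 FPKM in wild type and at 0.670, 0.644 and 2.07 FPKM in knockout. For both genes knockout library 3 was several fold above the rest, which lay close together. Scd1, a desaturase of lipid synthesis, stood at 7.73, 5.70 and 4.64 FPKM in wild type and at 6.77, 9.54 and 50.5 FPKM in knockout. Fasn, the fatty acid synthase, stood at 6.87, 5.66 and 7.23 FPKM in wild type and at 7.91, 7.11 and 19.7 FPKM in knockout. These synthetic enzymes had a level in every kidney, as Car3 did. Adig, a small protein of fat cells that was below the filter, was at most 0.247 FPKM in the other 5 libraries and 2.24 FPKM in knockout library 3.

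The 6 members of this list with the highest mean levels had a level in every kidney, and knockout library 3 was the highest of the 6 libraries for 4 of them (Pck1, Lpl, Me1 and Gpd1). Pck1, which makes phosphoenolpyruvate for glucose and glycerol synthesis, stood at 366, 493 and 193 FPKM in wild type and at 601, 516 and 643 FPKM in knockout. Lpl, the lipase that frees fatty acids from lipoproteins, stood at 39.5, 40.5 and 28.1 FPKM in wild type and at 36.0, 48.7 and 95.8 FPKM in knockout. For Lpl, knockout library 3 was 1.97-fold above the next library. Cd36, a fatty acid receptor of fat, endothelium and tubule, stood at 162, 130 and 105 FPKM in wild type and at 165, 142 and 96.8 FPKM in knockout, with knockout library 3 the lowest. Me1 and Gpd1, enzymes that supply NADPH and glycerol phosphate, reached 132 and 120 FPKM in knockout library 3 and at most 124 and 98.8 FPKM elsewhere, and Dgat2, of triglyceride synthesis, was 52.3 FPKM there and up to 55.4 FPKM elsewhere.

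Mgll, the lipase of the last step of triglyceride breakdown, had another pattern: it stood at 2.90, 4.13 and 3.63 FPKM in wild type and at 8.995, 8.88 and 11.6 FPKM in knockout. All 3 knockout libraries were above all 3 wild type libraries, and knockout library 3 was only slightly higher than the other 2. The log2 difference was 1.25 ± 0.15 (SE), with a limma adjusted p of 0.0649, and adjusted p was 0.0142 to 0.359 over the 18 alternative fits. The lowest came from library weights, the one fit that called it, and adjusted p was 0.106 without knockout library 3. Groups also did not overlap for Pparg, Cebpa, Gpd1, Acaca, Pck1 and Agpat2, so 7 of 31 in all, beside 16.6% of all genes kept. Cebpa, a C/EBP factor of fat cells and hepatocytes, stood at 9.48, 8.08 and 8.80 FPKM in wild type and at 12.5, 13.5 and 18.2 FPKM in knockout (limma adjusted p = 0.592).

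Genes of brown fat heat production were mostly highest in the same library, by less than 2-fold among those kept. Of a list of 20, 13 had values and 11 were kept. In the limma test over all genes, 0 of the 11 passed. Gk, 1 of the 11, had an unadjusted p under 0.05, beside 1037 of the 12836 genes kept. Of the 11, 10 were higher in knockout, with a median log2 difference of 0.30. Over the same 11 genes without knockout library 3, the count was 6 and the median 0.02. Of the 11 kept, 10 would have passed the filter on the other 5 libraries. Knockout library 3 was the highest for 10 of the 11 kept, and 2-fold above every other library for 0. Of the other 2 with values, Kcnk3, a potassium channel named after its values were seen, was 1.12 FPKM there and at most 0.376 FPKM elsewhere. Gk, glycerol kinase, which is also a tubule enzyme, stood at 27.5, 32.7 and 22.1 FPKM in wild type and at 32.4, 52.8 and 96.7 FPKM in knockout. Ppargc1a, the coactivator of mitochondrial growth, stood at 7.82, 9.29 and 7.89 FPKM in wild type and at 7.603, 9.38 and 15.8 FPKM in knockout.

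Cox8b had the same split as Cidea. This cytochrome oxidase subunit of brown fat and striated muscle, named after its values were seen, was listed at 0 FPKM in the other 5 libraries and at 1.90 FPKM in knockout library 3, and it fell below the filter. Pdk4, which blocks pyruvate oxidation, had the reverse order, at 25.4, 25.4 and 26.0 FPKM in wild type and 31.0, 20.8 and 6.43 FPKM in knockout. Slc27a2, a fatty acid transporter of proximal tubule, reached 486 FPKM in knockout library 3, Cyfip2, of the actin cytoskeleton, 32.8 FPKM, and Ppara, a regulator of fatty acid oxidation, 17.2 FPKM, against at most 432, 19.3 and 16.4 FPKM elsewhere.

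Droplet genes that are not specific to fat were mixed in their order. Of 13 kept, 6 were highest and 3 lowest in knockout library 3, beside 29.8% and 30.3% of all genes kept. In knockout 9 were higher, at a median log2 difference of 0.08. Groups did not overlap for 4 of the 13, Cideb, Fitm1, Bscl2 and Acadm, all higher in knockout, beside 16.6% of all genes kept. Plin2, the perilipin that coats droplets in tubule cells, stood at 239, 205 and 119 FPKM in wild type and at 211, 119 and 30.0 FPKM in knockout. Knockout library 3 was thus the lowest for Plin2 and the highest for Plin1 and Plin4. Lipa, the lysosomal acid lipase, lay between 83.5 and 113 FPKM in all 6, and Cpt1a, which admits fatty acids to mitochondria, between 78.1 and 134 FPKM. In this list 0 of 13 passed in the limma test, and 2, Fitm1 and Acadm, had an unadjusted p under 0.05, beside 1037 of the 12836 genes kept.

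**Figure D3:**
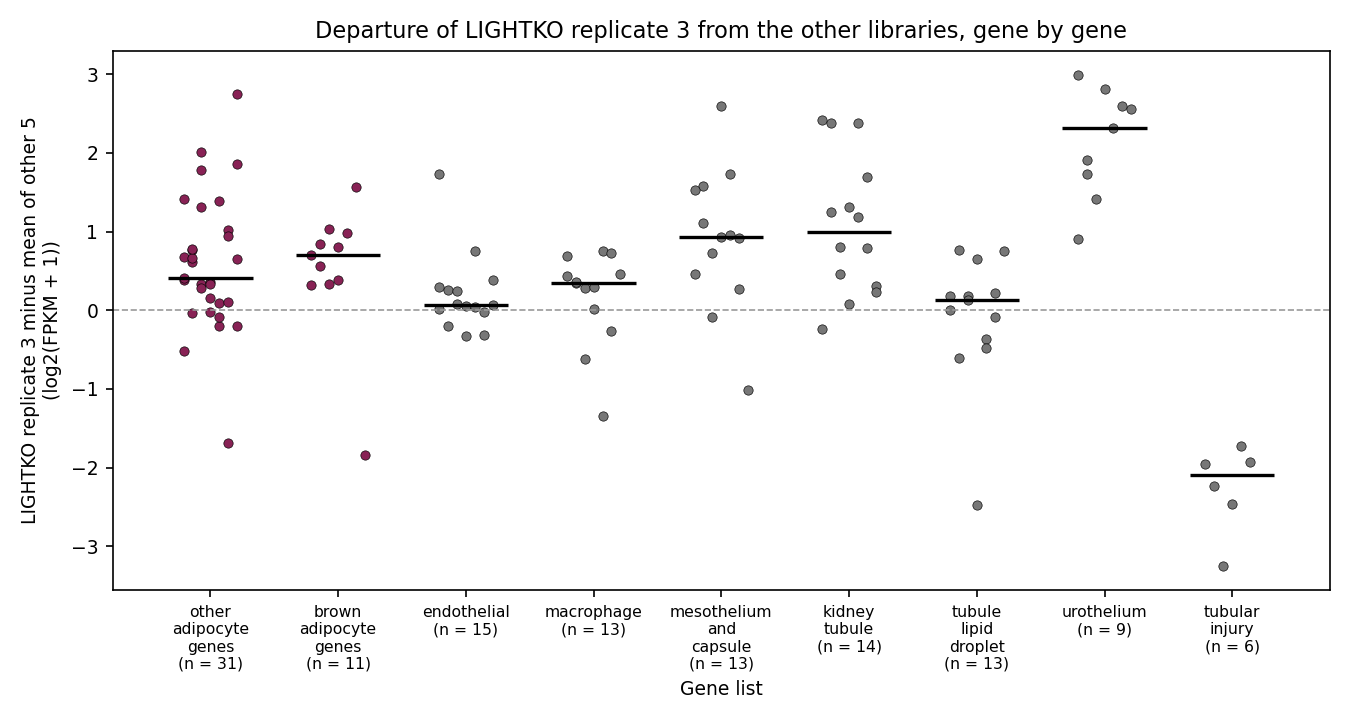
Each point is 1 kept gene, and the y axis is its log2(FPKM + 1) in knockout library 3 minus the mean of the other 5 libraries, with a bar at the median of each list. Both fat lists (dark red) have medians above 0, at 0.41 and 0.70. The kidney tubule list, at 0.99, and the mesothelial and capsule list, at 0.93, lie higher than both. The urothelial list lies higher still, at 2.32, and the injury list lower, at -2.09. The urothelial and injury lists were chosen after the values were seen. Of the 9 urothelial genes, 5 would have passed the filter on the other 5 libraries.

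Markers of other cells that could bear on these genes were read in the same libraries, and their part in the result was not tested. Of 15 endothelial genes, which could carry Fabp4, knockout library 3 was the highest for 6 and the lowest for 2, and the summed level was 281 to 350 FPKM in wild type and 291 to 541 FPKM in knockout. The top of that range came from Aqp1, a water channel also of proximal tubule, at 290 FPKM in knockout library 3, while Plvap, of fenestrated capillaries, was 85.6 FPKM there and 75.5 to 93.1 FPKM elsewhere, and Eng, an endothelial receptor of the TGF-beta pathway, was 27.4 FPKM there and 32.6 to 37.1 FPKM elsewhere. Of 13 macrophage genes knockout library 3 was the highest for 6 and the lowest for 2, Itgam and Cd14, and the sum was 161 to 267 FPKM in wild type and 148 to 189 FPKM in knockout. Lyz2, a lysozyme of myeloid cells, lay between 32.0 and 115 FPKM, and was 50.01 FPKM in knockout library 3, and the complement genes C1qa and C1qb were 33.9 and 29.0 FPKM there and 19.7 to 32.99 FPKM elsewhere. Cd14, a receptor for bacterial lipopolysaccharide named after its values were seen, was 8.02 FPKM there and 17.9 to 27.3 FPKM elsewhere.

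Markers of muscle and adrenal gland, which also lie near the kidney, mostly had no value in the deposited table. That table leaves out genes low in both groups, so a missing value does not exclude a low level. Of 14 skeletal muscle genes 3 had values, Mylpf, Pvalb and Des. The myosin light chain Mylpf, which fell below the filter, was 1.08 FPKM in knockout library 3 and 0.176 to 0.555 FPKM elsewhere. For Mylpf the groups did not overlap, with knockout higher. Pvalb, also a gene of the distal convoluted tubule, was 8.62 FPKM in knockout library 3 and at most 0.452 FPKM elsewhere, and passed the filter only through that library. The intermediate filament Des was lowest there, at 5.01 FPKM. Of 12 adrenal genes 1 had values, Star, a carrier of cholesterol into mitochondria, at 0.447 FPKM there and 0.944 to 1.63 FPKM elsewhere.

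Many genes of the renal pelvis and the nephron, and some of the kidney surface, were also high in knockout library 3. Of 13 mesothelial and capsule genes, knockout library 3 was the highest for 10 and at least 2-fold above every other library for 4, and the sum was 252 to 318 FPKM in wild type and 245 to 359 FPKM in knockout, most of it from the epithelial keratin Krt8, which was lowest in that library at 114 FPKM. Krt19, another epithelial keratin, was 20.5 FPKM there and 5.51 to 19.8 FPKM elsewhere, and the membrane protein Gpm6a was 30.0 FPKM there and 12.9 to 19.9 FPKM elsewhere. The 9 urothelial genes come from a list chosen after the values were seen. Of these 9, 5 would have passed the filter on the other 5 libraries. Knockout library 3 was the highest for all 9 and at least 2-fold above every other for 7. Both counts were partly fixed by that choice and by the filter. Their sum was 68.7 FPKM in that library, against 2.56 to 15.5 FPKM elsewhere. The urothelial list shares Upk1b and Upk3b with the mesothelial list, and both are among the 4 genes just counted there, beside Dcn and Lum. Of 14 nephron genes knockout library 3 was the highest for 11 and at least 2-fold above every other for 6, with Slc34a1, the phosphate transporter of proximal tubule, at 875 FPKM there and 290 to 426 FPKM elsewhere. Of the thick ascending limb genes, Umod was 540 FPKM there and 340 to 696 FPKM elsewhere, while the salt transporter Slc12a1, named after its values were seen, was 138 FPKM there and 12.7 to 48.9 FPKM elsewhere. All 6 tubular injury genes of a second list chosen after the values were seen were lowest in that library, at least 2-fold below every other (1.81% of all genes kept), summing to 1623 FPKM against 4739 to 6423 FPKM. The part of these tissues and of injury in the fat gene levels was not tested.

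The genes nearest to the mean split of the 10 over the 6 libraries included genes of other tissues. Nearness was the summed absolute difference between a gene's shares of its own total over 6 libraries and the mean shares of the 10 members. It was taken over 10860 other genes kept that reached 2 FPKM in any library. Predicted models, with symbols of Gm and digits or ending in Rik, were left out. On average 80.5% of a member's total lay in knockout library 3 and 3.49 to 4.35% in each other library. The 12 nearest genes, at differences of 0.0644 to 0.170, were A4gnt, Egf, Tal2, Hp, Npy1r, Nnat, Upk1a, Ptger1, Upk2, Rasal1, Hcar1 and Fcgbp. Of these, A4gnt, Tal2, Nnat, Upk1a, Upk2, Rasal1, Hcar1 and Fcgbp passed the filter only through knockout library 3. The members themselves lay at 0.112 (Car3) to 1.01 (Lipe), and 8 of the 10, at 0.298 or more, were farther from their own mean than any of the 12 genes. The mean split thus lies close to 2 members, Car3 and Cidec, and nearness to it is not likeness to most of the 10.

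Of the 12, Hp and Hcar1 are well known in fat cells among other tissues, and Nnat is on the fat list. Hp, which encodes haptoglobin, the haemoglobin scavenger of liver and fat, stood at 2.69, 2.21 and 3.18 FPKM in wild type and at 1.77, 2.72 and 76.8 FPKM in knockout. Hcar1, the lactate receptor of fat cells, stood at 0.185, 0.220 and 0.415 FPKM in wild type and at 0.201, 0.375 and 3.82 FPKM in knockout. Egf, a growth factor of the distal nephron, stood at 1.88, 3.55 and 2.73 FPKM in wild type and at 1.74, 1.64 and 55.0 FPKM in knockout. Upk1a and Upk2, plaque proteins of the urothelium, were 5.72 and 6.07 FPKM in knockout library 3 and at most 0.565 and 0.415 FPKM elsewhere. The rule takes genes with most of their total in knockout library 3, so the high library that these 12 share was fixed by the choice.

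**Figure D4:**
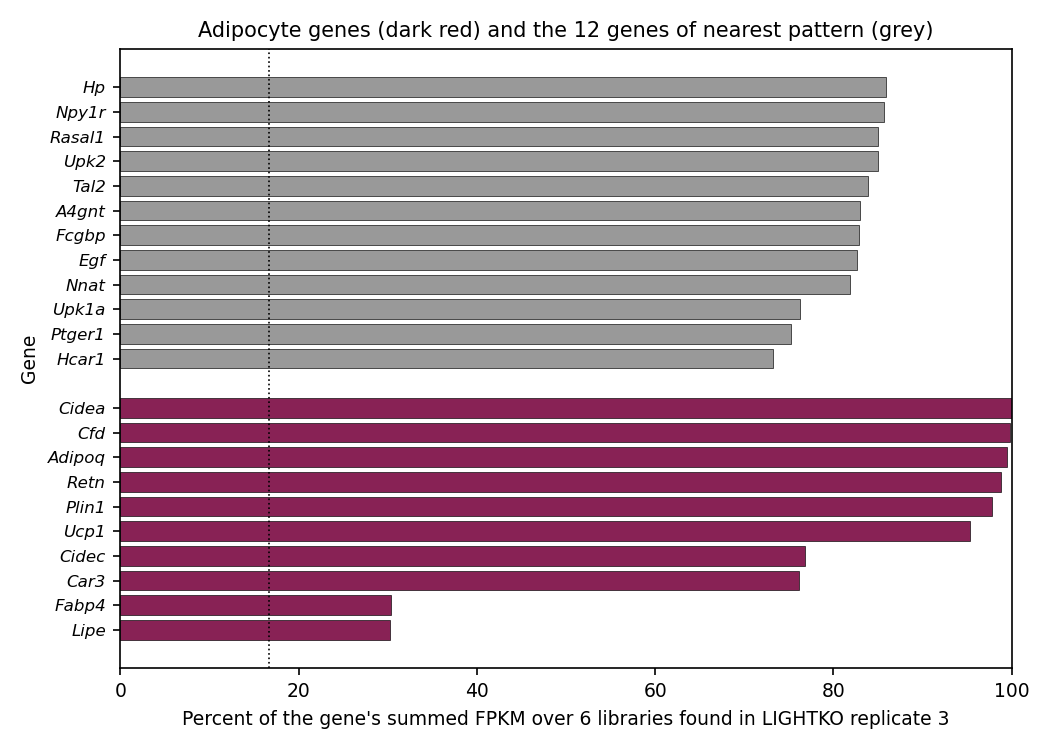
Bars give the percent of each gene's FPKM, summed over the 6 libraries, that was found in knockout library 3, for the 10 adipocyte genes (dark red) and the 12 genes of nearest pattern (grey), with a dotted line at an equal share of 16.7%. The adipocyte genes run from 30.2% (Lipe) to 100% (Cidea), and the 12 others from 73.2% (Hcar1) to 85.9% (Hp).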

How the data were processed

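The deposited values were FPKM per gene, made by the authors, with FastQC, HISAT2, StringTie and build mm10 named in the submitters' processing notes without versions. No annotation and no use of strand is named in the sources used here. Each of the 6 library files was identical to its column in the table of all libraries. Genes whose mean reached 0.5 FPKM were kept (12836, with 190 removed), and knockout was compared with wild type on log2(FPKM + 1) in limma 3.58.1 under R 4.3.3, with a variance trend, two-sided p-values and Benjamini-Hochberg adjustment over all genes kept. The fit was tested on simulated data. An exact permutation test of 3 against 3 cannot go below p = 0.1. Positions are from GENCODE M21, on the assembly of mm10, where 13005 identifiers matched. The members and lists were chosen with earlier results of these data known.

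All members are named. From each list the rule named every called gene and the genes with the highest means, up to 6 for the fat lists and 3 for others, and the 12 genes of nearest pattern. Names outside it, such as Mgll, Cebpa and Plin4, were chosen after their values were seen. Same-numbered libraries were checked for pairing. Alternatives were other pseudocounts, filters, scalings and variance models, a replicate block, and each library left out. FPKM give no read depth, and the libraries' number limits the precision.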

Additional observations from a re-analysis of the deposited data

How the results depend on the processing

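All 15 calls over all genes were lost with the replicate number as a block (0 called), and library weights gave 52. Leaving out each library in turn gave 0 to 11 calls: 0 when wild type library 1, wild type library 3 or knockout library 2 was left out, 6 without wild type library 2, 7 without knockout library 1 and 11 without knockout library 3. The other alternatives for all genes gave 11 to 16. The correlations of deviations for the same-numbered pairs were 0.15, -0.13 and -0.02, and those of the other pairs ran from -0.14 to 0.18. With 3 libraries per group these cannot decide whether the numbers pair the libraries. Under the block 0 members of either fat list were called, and their median log2 differences were as before, 0.26 and 0.30. Over the 10 members the median was 0.79 and lay between -0.16 and 1.27 with each library left out. The lowest was without knockout library 3, where 4 members remained above the filter and 3 of these were lower in knockout. It was 1.59 with a pseudocount of 0.1. The median of the other fat genes lay between 0.15 and 0.41, highest without knockout library 1, and that of the brown fat genes between 0.09 and 0.43, highest without knockout library 1. Both were lowest without knockout library 3, where the filter was applied anew and kept 28 and 10 genes, so these medians differ from those over the same genes given above. Without knockout library 3, Cfd, Adipoq, Cidea, Retn, Plin1 and Ucp1 fell below the filter and gave no value. Mgll was called with library weights alone. The depth is unknown, so how many reads stand behind a level near 0 cannot be given.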

Other observations

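Outside the lists, the genes with the highest ratio of knockout library 3 to the next library, among named genes above 0 in all libraries and at 2 FPKM or more there, were chosen after their values were seen. Pet117, a mitochondrial assembly factor, was 10.2 FPKM in that library and at most 0.0064 FPKM in the others. Cldn11, a tight junction protein, was 12.9 FPKM there and at most 0.144 FPKM elsewhere, and Aldh1a3, an enzyme of retinoic acid synthesis, was 23.8 FPKM there and at most 0.398 FPKM elsewhere. Sptssb, a subunit of sphingolipid synthesis, was 12.5 FPKM there and at most 0.495 FPKM elsewhere. Pet117, Cldn11, Aldh1a3 and Sptssb each passed the filter only through that library.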
